A study of Mus musculus with 7 samples.

Results

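The 10 cytosolic sulfotransferase genes described here are Sult1a1, Sult1b1, Sult1c2, Sult1d1, Sult1e1, Sult2a1, Sult2a2, Sult2a8, Sult3a1 and Sult5a1, out of 27 genes with a name beginning in Sult and 54532 genes in the whole table. They were picked by name with their levels in both diets already known, so every difference between CR and AL livers in these 10 genes is given as a description, without a test. Of the 10, 8 were higher in CR livers and 2, Sult2a8 and Sult5a1, were lower, and the transcripts that made up most of the family in CR livers (Sult2a2 and Sult2a1) were at or near 0 in AL livers.

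RNA was measured in the livers of male C57BL/6 mice aged 30 weeks, 4 under calorie restriction (CR) and 3 fed ad libitum (AL), with 1 library per mouse. The restriction began at 12 weeks of age, was deepened in steps to 30% and had lasted 18 weeks when the livers were taken in the afternoon. CR mice lived alone and had 1 meal a day soon after the lights went off, while AL mice shared cages and ate at will, so that diet, housing and time since the last meal cannot be told apart. Levels are the deposited FPKM, fragments per kilobase of gene length scaled for library depth, which makes genes of unlike length comparable.

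Cytosolic sulfotransferases move a sulfonate group from the donor phosphoadenosine phosphosulfate (PAPS) onto a hydroxyl or amino group of a small molecule. The product is more soluble and usually inactive as a hormone, and it leaves the hepatocyte through membrane transporters. The Sult1 enzymes act mainly on phenols, catecholamines, thyroid hormones and oestrogens, and the Sult2a enzymes on hydroxysteroids and bile acids. In mouse liver several of these genes, Sult2a1, Sult2a2 and Sult3a1 among them, are known for higher expression in females than in males.

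The Sult2a genes sit together on chromosome 7, and their coding sequences are shown first because reads from near-identical copies are hard to assign. The files' coordinates (GRCm38) place 8 coding Sult2a genes and 4 pseudogenes in 870 kb at chr7:13623967-14494230. The following 60 coding bases are bases 121 to 180 counted from the start codon of Sult2a1, around the loop that binds the sulfate donor, from the GENCODE M21 transcripts. Capitals mark bases that differ from Sult2a1.
Sult2a1: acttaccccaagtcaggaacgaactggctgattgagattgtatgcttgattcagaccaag
Sult2a2: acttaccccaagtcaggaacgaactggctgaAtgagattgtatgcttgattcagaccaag
Sult2a5: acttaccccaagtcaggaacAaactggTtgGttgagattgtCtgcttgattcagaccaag
Sult2a3: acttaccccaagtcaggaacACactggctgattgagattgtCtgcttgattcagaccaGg
Sult2a8: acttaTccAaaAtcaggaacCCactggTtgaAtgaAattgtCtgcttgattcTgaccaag
In this stretch Sult2a2 differed from Sult2a1 at 1 base, Sult2a5 and Sult2a3 at 4 bases each and Sult2a8 at 10 bases.

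Over the aligned coding bases Sult2a1 was 97.9% identical to Sult2a2, 94.9% to Sult2a5, 93.7% to Sult2a3 and 69.1% to Sult2a8. The annotated coding sequence of Sult2a2 is short, at 582 bases against 855 for Sult2a1, and its table length of 741 bases enters its FPKM. Of all 100-base stretches in its transcripts, 34.6% for Sult2a2 and 11.4% for Sult2a1 also occur in another gene, so the division of reads among Sult2a1, Sult2a2 and Sult2a5 is uncertain. Sult1a1 shared 1.75% of its stretches, with Gm6939, and the other 7 genes shared none. The 5 Sult1 genes were between 59.0% and 63.2% identical to each other.

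Sult2a1 and Sult2a2 encode hydroxysteroid and bile acid sulfotransferases. Sult2a1 (chr7:13796246-13837409, minus strand) had 374, 731, 255 and 265 FPKM in the 4 CR livers, and 0 reads in each of the 3 AL livers. A count of 0 allows up to 3 reads, on average 0.181 FPKM in an AL library, so Sult2a1 was at least 2247-fold higher in CR livers. Sult2a2 (chr7:13733505-13779636, plus strand) had 471, 767, 351 and 363 FPKM in CR livers, against 0, 0.0794 and 0 FPKM in AL livers, where the middle value is 1 read. Its ratio of total reads, scaled for library depth, was 17358, with an exact 95% interval of 3115 to 685625 that covers counting error only. Both genes were abundant in every CR liver and nearly or wholly without reads in every AL liver, and together they held 55710 reads in CR livers and 1 read in AL livers, whichever way reads were divided between the 2 copies.

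Sult2a8 (chr7:14410686-14446769, minus strand), which in the mouse acts on bile acids, went the other way. It had 45.8, 29.3, 18.0 and 46.0 FPKM in CR livers, against 189, 155 and 188 FPKM in AL livers. The mean was 34.8 ± 13.6 FPKM in CR livers and 177 ± 19.3 FPKM in AL livers (SD, n = 4 and 3), 5.10-fold lower in CR, or a log2 difference of -2.44 ± 0.32 (SE). The lowest AL liver stood well above the highest CR liver. Here and below, log2 differences are CR minus AL on the log2(FPKM + 0.1) scale, with standard errors from the limma fit across all genes.

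Among the Sult1 genes, Sult1a1 was the most abundant. It encodes the phenol sulfotransferase, which also handles many drugs. Sult1a1 (chr7:126672865-126676432, minus strand) had 326, 345, 261 and 292 FPKM in CR livers, against 143, 112 and 126 FPKM in AL livers. Its mean of 306 ± 37.5 FPKM in CR livers was 2.41-fold that of 127 ± 15.3 FPKM in AL livers, a log2 difference of 1.27 ± 0.14. Sult1d1, a sulfotransferase of catecholamines in the mouse, had 119, 129, 157 and 133 FPKM in CR livers, against 46.2, 40.01 and 24.0 FPKM in AL livers. The means, 135 ± 16.1 FPKM in CR and 36.7 ± 11.5 FPKM in AL livers, differed 3.66-fold (log2 difference 1.92 ± 0.22). The diets did not overlap for either gene, and the AL values of Sult1d1 were 1.93-fold apart.

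Sult1d1 shares a stretch of 78.3 kb on chromosome 5 with Sult1b1 and Sult1e1, at chr5:87513339-87591594. Sult1b1, which sulfates thyroid hormones, had 13.0, 13.2, 9.18 and 11.5 FPKM in CR livers, against 8.11, 5.57 and 4.13 FPKM in AL livers. It had the smallest difference of the 10 genes, 1.97-fold (log2 difference 1.01 ± 0.23), and its lowest CR value, 9.18, was close to its highest AL value, 8.11. Sult1e1, the oestrogen sulfotransferase, had 4.14, 6.10, 10.4 and 4.50 FPKM in CR livers, against 0.0494, 0.237 and 0.155 FPKM in AL livers. The AL values came from 1, 5 and 3 reads, so that the ratio of means, 42.8-fold (log2 difference 4.67 ± 0.39), has a thinly counted denominator. All 3 neighbours on chromosome 5 were thus higher in every CR liver than in any AL liver, by unequal factors.

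The remaining genes were present at low levels. Sult1c2 (chr17:53829637-53846339) encodes another enzyme of the phenol-sulfating family. It had 2.70, 3.08, 1.27 and 2.71 FPKM in CR livers, against 0.632, 0.510 and 0.730 FPKM in AL livers, 3.91-fold higher in CR (log2 difference 1.75 ± 0.31). Sult3a1 (chr10:33857721-33879532), known in the mouse for sulfating amines, had 0.828, 1.16, 2.12 and 2.51 FPKM in CR livers, from 19, 22, 42 and 58 reads, and 0 reads in each AL liver. With up to 3 reads allowed per AL library, on average 0.160 FPKM, it was at least 10.4-fold higher in CR livers. Sult5a1 (chr8:123140192-123158315), whose substrates are poorly known, had 0.274, 0.124, 0.225 and 0.158 FPKM in CR livers, against 2.03, 1.17 and 2.80 FPKM in AL livers, 10.3-fold lower in CR (log2 difference -2.78 ± 0.35). These 3 genes also showed no overlap between the diets, at levels far below those of Sult1a1.

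**Figure D1:**
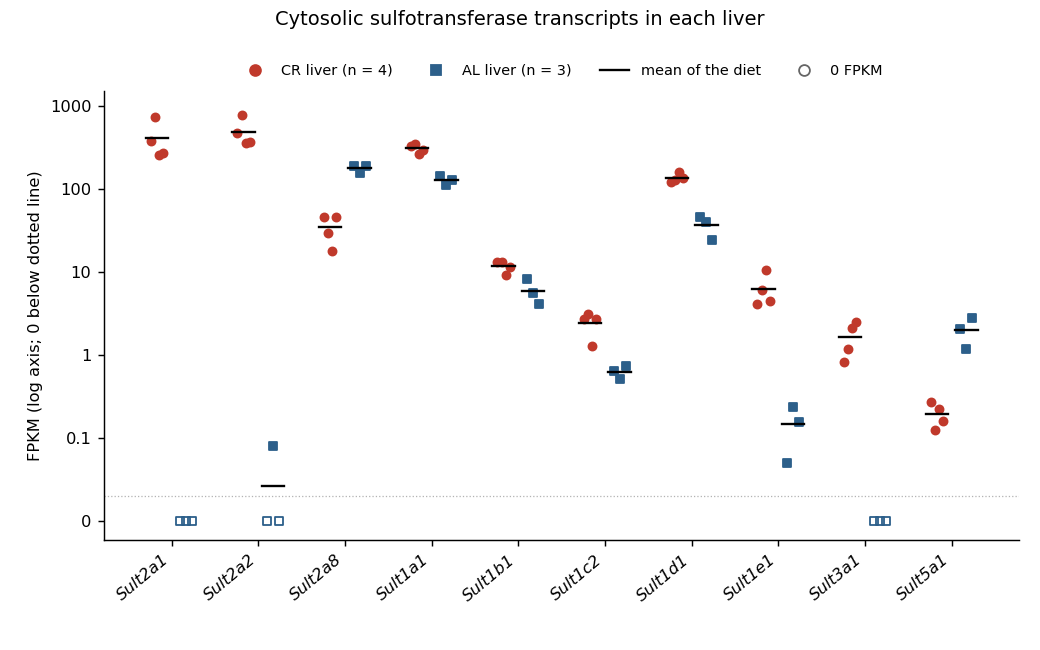
FPKM of the 10 sulfotransferase genes (log axis, with 0 drawn below the dotted line) in 4 CR livers (circles, left of each gene) and 3 AL livers (squares, right of each gene), with the mean of each diet as a bar. Sult2a1 and Sult3a1 are at 0 in all 3 AL livers, and Sult2a8 and Sult5a1 are the 2 genes whose CR livers lie below the AL livers.

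Read as a group, 10 of 10 genes passed the filter of at least 0.5 FPKM in at least 3 livers, 8 were called higher in CR and 2 lower, and 10 of 10 did not overlap between the diets. Over all 12699 genes tested, 11.3% were called higher in CR and 10.2% lower (limma, Benjamini-Hochberg adjusted p under 0.05), 21.5% in either direction, and 34.4% did not overlap between the diets. The median log2 difference was 1.83 over the 10 genes and -0.0019 over all genes tested. Because the genes were chosen with this contrast in view, nothing is read from these counts. In bulk tissue, fewer cells of a type and less RNA per cell cannot be told apart.

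The diets differed in which transcripts made up the family. In CR livers the order of mean levels was Sult2a2 (488 FPKM), Sult2a1 (406), Sult1a1 (306), Sult1d1 (135), Sult2a8 (34.8), Sult1b1 (11.7), Sult1e1 (6.29), Sult1c2 (2.44), Sult3a1 (1.65) and Sult5a1 (0.195 FPKM). In AL livers it was Sult2a8 (177 FPKM), Sult1a1 (127), Sult1d1 (36.7), Sult1b1 (5.94), Sult5a1 (2.001), Sult1c2 (0.624) and Sult1e1 (0.147 FPKM), followed by Sult2a2 (0.0265), Sult2a1 and Sult3a1 (both 0). In CR livers the ranges of Sult2a2 and Sult2a1, of Sult2a1 and Sult1a1, of Sult1b1 and Sult1e1, and of Sult1c2 and Sult3a1 overlapped, so these neighbours in the order are not separated. In AL livers only Sult1e1 and Sult2a2, and the genes at 0, were not separated.

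The summed level of the 10 genes was 1392 ± 441 FPKM in CR livers (range 1065 to 2025) and 350.0 ± 36.9 FPKM in AL livers (range 315 to 389). Sult2a2 gave 32.4% to 37.9% of that sum in CR livers, against 0% to 0.0252% in AL livers. Sult2a1 gave 23.7% to 36.1% in CR livers and 0% in AL livers. Sult2a8 gave 1.45% to 4.10% in CR livers, against 48.6% to 54.5% in AL livers. By FPKM the leading gene was Sult2a2 in 4 of 4 CR livers and Sult2a8 in 3 of 3 AL livers. The lead of Sult2a2 over Sult2a1 rests on its short table length of 741 bases, against 1020 for Sult2a1. By reads, Sult2a2 had 6927, 9296, 4457 and 5386 in CR livers and Sult2a1 had 7570, 12204, 4449 and 5421, so that Sult2a1 was ahead in 3 of 4 CR livers. Sult1a1 had a lower share of the larger CR sum, 17.1% to 26.0% in CR livers against 35.7% to 36.8% in AL livers, although its own level was higher. The share of Sult1d1 overlapped between the diets, at 6.37% to 14.7% in CR livers and 6.92% to 12.7% in AL livers.

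**Figure D2:**
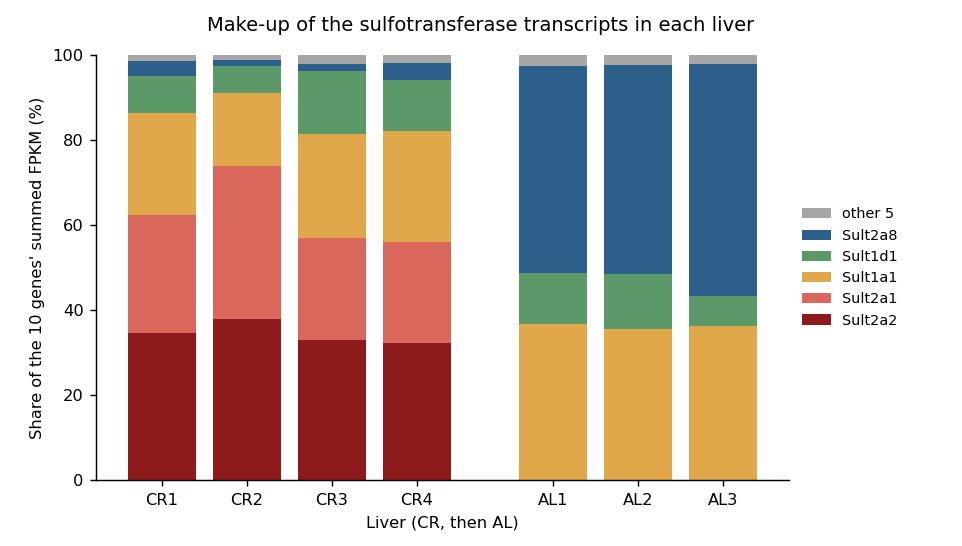
Share of each gene in the summed FPKM of the 10 sulfotransferase genes, in percent, for 4 CR livers (left) and 3 AL livers (right), with the 5 least abundant genes pooled in grey. By FPKM, with its short table length of 741 bases, Sult2a2 is the largest share of each CR liver, 32.4% to 37.9%, and Sult2a8 the largest share of each AL liver, 48.6% to 54.5%.

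The other 17 genes named Sult were mostly silent in both diets. Of these, 12 stayed under 0.5 FPKM in every liver, 5 of them at 0 in all 7 livers. The 5 with a higher level all lie in the chromosome 7 cluster. Sult2a5 had 59.7, 96.2, 22.5 and 41.0 FPKM in CR livers, and 0 reads in every AL liver, at least 311-fold higher in CR. Sult2a3 had 51.6, 30.9, 8.72 and 19.6 FPKM in CR livers, and 0 reads in every AL liver, at least 153-fold higher in CR. Sult2a7 had 10.2, 6.79, 3.65 and 22.5 FPKM in CR livers, against 0.336, 0.369 and 3.61 FPKM in AL livers. Its lowest CR liver and its highest AL liver, 3.65 and 3.61 FPKM, nearly met.

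The pseudogenes followed at very low levels. Sult2a-ps1 had 1.33, 2.51, 0.514 and 0.439 FPKM in CR livers and 0 reads in AL livers, at least 2.21-fold higher in CR. Sult2a-ps2 had 0.8704, 1.81, 0.144 and 0.370 FPKM in CR livers and 0 reads in AL livers, at least 1.75-fold higher. Both rest on few reads, 29 and 23 in all CR livers, and were not chosen by the rule but read with the contrast in view, so they too are described without a test. The 10 genes held 91.6% to 96.8% of all Sult FPKM in CR livers and 99.0% to 99.9% in AL livers.

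**Figure D3:**
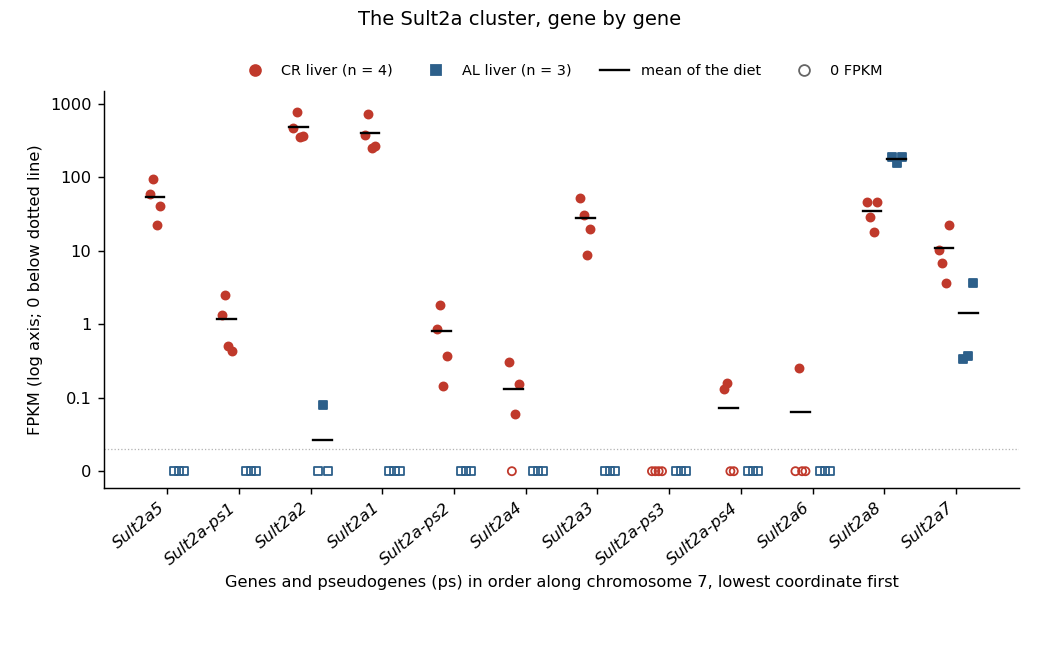
FPKM (log axis, 0 drawn below the dotted line) of the 12 Sult2a genes and pseudogenes in their order along chromosome 7, in 4 CR livers (circles, left of each gene) and 3 AL livers (squares, right of each gene), with the mean of each diet as a bar. In AL livers Sult2a8 and Sult2a7, the last 2 of the cluster, are the genes with more than 1 read, and in the order shown Sult2a8 is the one gene that is lower in CR livers.

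The spread among the 4 CR livers differed from gene to gene. CR2 was highest and CR3 lowest for Sult2a2, Sult2a1, Sult2a5, Sult1a1, Sult1b1 and Sult1c2. The highest CR liver exceeded the lowest 2.87-fold for Sult2a1, 2.18-fold for Sult2a2 and 4.28-fold for Sult2a5, but 1.33-fold for Sult1a1 and 1.43-fold for Sult1b1. Sult1d1 and Sult1e1 had another order, with CR3 highest and CR1 lowest, 1.32-fold and 2.52-fold apart. Sult2a8 was highest in CR4 and lowest in CR3 (2.55-fold), and Sult3a1 highest in CR4 and lowest in CR1 (3.03-fold). The 10 genes thus did not vary as one block among livers of the same diet.

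**Figure D4:**
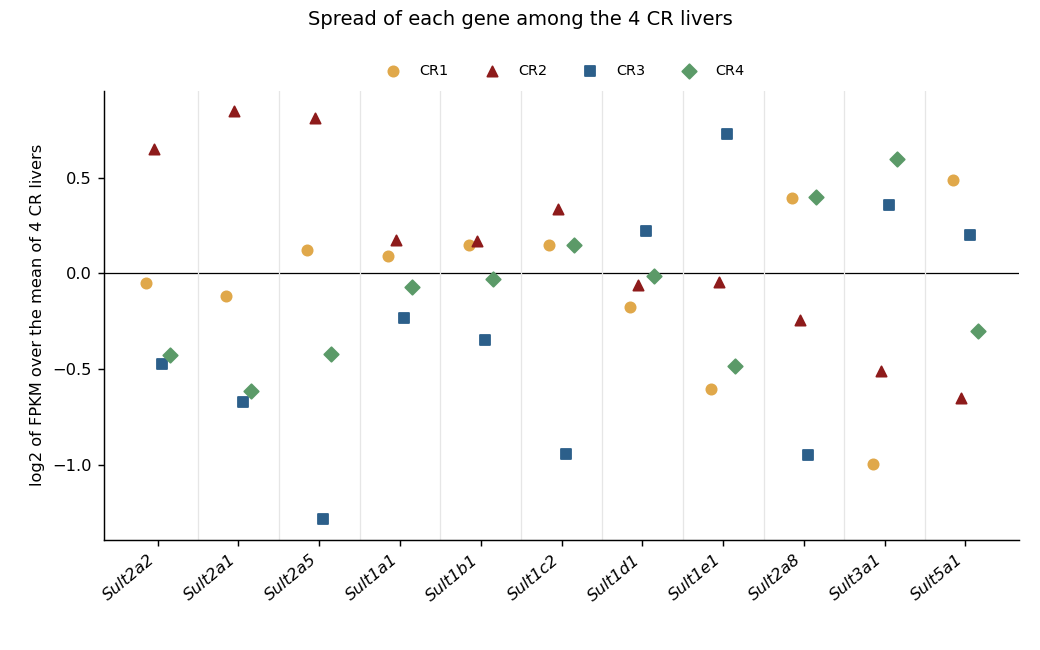
Level of each gene in each of the 4 CR livers, as log2 of its FPKM over the mean of the 4 CR livers, for the 10 sulfotransferase genes and Sult2a5. CR2 (triangles) is highest and CR3 (squares) lowest for the first 6 genes from the left, and CR3 is highest for Sult1d1 and Sult1e1.

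The genes with the most similar pattern over the 7 livers were looked up for the 3 genes with the largest fitted differences, leaving out genes named Sult. The measure was Pearson's r of log2(FPKM + 0.1), a description over 7 livers that fall into 2 diets, so it mostly ranks genes by the diet difference. For Sult2a1 and for Sult2a2 the first gene was Cux2 (r of 0.998 and 0.997), a liver transcription factor known for higher expression in female mice. Cux2 averaged 5.41 ± 0.984 FPKM in CR livers and 0.0163 ± 0.00362 FPKM in AL livers. The next were Mxi1 and Zzz3 for Sult2a1 and Fam84b and Zzz3 for Sult2a2. For Sult1e1 they were Tlk2, Rnd2 and Kansl1l, with r between 0.994 and 0.998. With the mean of each diet subtracted, none of these but Tlk2 stayed among the first 3, and the list became Qrsl1, Tubgcp2 and Ncoa6 for Sult2a1, Cep170, G6pdx and Vezf1 for Sult2a2, and Tlk2, Mapkbp1 and Dgcr2 for Sult1e1. After this subtraction Sult2a1 is flat across the AL livers, and Sult2a2 varies there only through its 1 read in AL2. The r between Sult2a1 and Sult2a2 was 0.794 after it, but 0.9999 over the CR livers alone. Nothing is therefore read from the difference between their lists.

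Promoter sequences (RefSeq, GRCm38.p6) were available for 8 of the 10 genes and for Sult2a3, Sult2a4, Sult2a5 and Sult2a6. Sult2a1 and Sult2a2 had no promoter entry, so neither could be searched. An inverted repeat without a spacer, known as IR0, has been described in rodent Sult2a promoters as a place where the nuclear receptors FXR and PXR bind. The 4 Sult2a windows below hold the letters GGTCATGAACTT or a copy with 1 mismatch, shown in capitals. These letters do not read the same on both strands, so they are not an exact inverted repeat. Their ends were not set by those of the repeat, and their matches are not counts of IR0 sites. The windows are printed 5′ to 3′ on the strand of the gene. They were chosen because 2 of these 4 genes (Sult2a5 and Sult2a3) had at least 8.72 FPKM in every CR liver while Sult2a4 and Sult2a6 were nearly silent.
Sult2a5 (chr7:13623781-13623860, plus strand): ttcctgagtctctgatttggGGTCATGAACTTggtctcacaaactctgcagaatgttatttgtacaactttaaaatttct
Sult2a4 (chr7:13989774-13989838, minus strand): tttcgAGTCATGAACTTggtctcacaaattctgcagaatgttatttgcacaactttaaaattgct
Sult2a3 (chr7:14123178-14123257, minus strand): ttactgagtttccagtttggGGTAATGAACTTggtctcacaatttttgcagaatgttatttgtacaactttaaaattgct
Sult2a6 (chr7:14255021-14255100, minus strand): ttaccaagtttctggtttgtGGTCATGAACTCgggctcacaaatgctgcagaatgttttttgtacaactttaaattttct

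Within the promoter table, which covers 250 bases before to 50 bases after each start site, the exact GGTCATGAACTT was found, with both strands searched, in 1 of 32851 promoters, that of Sult2a5. The shorter GGTCATGAAC, contained in it, was found in 17 of 32851 promoters, or 0.0517%. The best match in either Sult2a8 promoter had 4 mismatches. These letters were taken from the Sult2a5 promoter after the sequences had been seen. Sult2a4 and Sult2a6, each with 1 mismatch, reached at most 0.307 and 0.252 FPKM in any CR liver. A match in letters is a description and not a site of binding.

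The genes around the 10 sulfotransferases were not used to choose them. Within 250 kb of any of the 10 lay 153 genes not named Sult, of which 49 were tested. Of these 49, 8 rose (16.3%, against 11.3% of all genes tested) and 4 fell (8.16%, against 10.2%), and 37 were not called (limma, Benjamini-Hochberg). Of the genes that rose, 4 are pseudogenes inside the Sult2a cluster. These 4 passed the filter only through their CR livers, so nothing is read from the share that rose. Zbed4-ps1 had 8.46, 12.9, 2.29 and 3.00 FPKM in CR livers and 0 reads in AL livers. Tmem167-ps1, Kat6b-ps2 and Zbed4-ps2 averaged 2.96, 1.998 and 1.197 FPKM in CR livers, and each had 0 reads in every AL liver. Zbed4-ps1, Kat6b-ps2 and Zbed4-ps2 overlap Sult2a5, Sult2a1 and Sult2a2 on the same strand, so their reads and those of the host genes cannot be told apart. CR2 was the highest CR liver for these 4 pseudogenes, as it was for Sult2a1 and Sult2a2.

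Outside that cluster, neighbours moved in both directions. Beside Sult1b1 on chromosome 5, Ugt2b38, a glucuronosyltransferase, had 7.32, 8.79, 12.2 and 8.27 FPKM in CR livers, against 37.6, 37.0 and 37.1 FPKM in AL livers (log2 difference -2.04 ± 0.17, adjusted p = 0.000268, limma). The pseudogenes Gm35570 and Gm21049 next to it fell as well, by 1.37 and 1.89 on the log2 scale (adjusted p = 0.014 and 0.0128, limma), while Ugt2a3 was not called. Gm35570 lost its call without AL1 or AL2 (adjusted p up to 0.0603). Thus 3 of 6 tested neighbours of the chromosome 5 genes fell (50%, against 10.2% of all genes tested) and none rose. These 3 are Ugt2b38 and the pseudogenes next to it, 89.1 to 143 kb from Sult1b1, so nothing is read from this share. Kat2b, an acetyltransferase gene near Sult1c2, rose to 32.2 ± 3.94 FPKM in CR livers, against 16.6 ± 1.54 FPKM in AL livers (log2 difference 0.95 ± 0.12, adjusted p = 0.00258, limma). Tmem219, 2510046G10Rik and 2810013P06Rik rose as well, and Obox4-ps2 near Sult2a8 fell, but each of these 4 calls was lost in at least 3 of the 7 fits that left out a single liver. Sult1a1 overlaps Sgf29 on the opposite strand, and Sgf29 was not called (7.66 ± 1.39 FPKM in CR livers and 6.20 ± 0.96 FPKM in AL livers), at 3.07% of the mean level of Sult1a1.

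Of 20 tested genes for sulfate uptake, cysteine breakdown and PAPS synthesis, 4 rose (20%, against 11.3% of all genes tested), 2 fell (10%, against 10.2%) and 14 were not called, with a median log2 difference of 0.07. The rising genes were Cth, Cdo1, Sqor and Papss2. Cth, which makes cysteine, had 279, 279, 310 and 207 FPKM in CR livers, against 89.2, 93.8 and 89.8 FPKM in AL livers (log2 difference 1.55 ± 0.15, adjusted p = 0.000632, limma). Cdo1, the dioxygenase that opens the breakdown of cysteine to sulfate and taurine, averaged 1275 ± 141 FPKM in CR livers and 496 ± 96.1 FPKM in AL livers (log2 difference 1.37 ± 0.17, adjusted p = 0.0018, limma). Sqor, a mitochondrial sulfide oxidase, averaged 56.3 ± 5.01 FPKM in CR livers and 29.8 ± 0.56 FPKM in AL livers. For each of these 3 genes every CR liver exceeded every AL liver, and each kept its call without any 1 liver.

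PAPS itself is made by Papss1 and Papss2, and these 2 genes, with Cbs, were added after their values had been seen. Papss2, the main form in these livers, had 89.1, 82.3, 56.7 and 58.2 FPKM in CR livers, against 40.6, 32.1 and 39.9 FPKM in AL livers. It rose by a log2 difference of 0.91 ± 0.19 (adjusted p = 0.0154, limma), a call that was lost without AL2 (adjusted p = 0.0659). Papss1 was lower, at 3.93 ± 0.54 FPKM in CR livers and 5.75 ± 0.94 FPKM in AL livers (log2 difference -0.54 ± 0.15, adjusted p = 0.0412, limma). Cbs, which feeds the cysteine pathway, was at 83.0 ± 10.1 FPKM in CR livers and 130 ± 28.3 FPKM in AL livers (log2 difference -0.63 ± 0.17, adjusted p = 0.0379, limma). The calls for Papss1 and Cbs were lost in 6 and 5 of the 7 fits that left out a single liver, with adjusted p up to 0.0908 and 0.133. The sulfate transporter Slc26a1 and the PAPS carrier of the Golgi, Slc35b2, were not called.

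Sulfatases, which remove sulfate, and the Golgi sulfotransferases, which sulfate sugars and proteins with the same donor, were tested as separate lists. Of 11 tested sulfatase genes 2 rose (18.2%, against 11.3% of all genes tested), 1 fell (9.09%, against 10.2%) and 8 were not called, with a median log2 difference of 0.14. Arsa, the lysosomal arylsulfatase, had 2.83, 4.98, 5.63 and 4.398 FPKM in CR livers, against 14.7, 14.0 and 14.4 FPKM in AL livers (log2 difference -1.71 ± 0.22, adjusted p = 0.00217, limma). Sulf2, which trims heparan sulfate, averaged 2.71 ± 0.26 FPKM in CR livers and 0.904 ± 0.24 FPKM in AL livers (log2 difference 1.51 ± 0.19, adjusted p = 0.00189, limma), and Ids, the iduronate sulfatase, rose by a log2 difference of 0.74 ± 0.11 (adjusted p = 0.00435, limma). Sumf1, which activates sulfatases, was not called.

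Of 14 tested Golgi sulfotransferase genes 1 rose (7.14%, against 11.3% of all genes tested), 1 fell (7.14%, against 10.2%) and 12 were not called, with a median log2 difference of -0.13. Gal3st1, which makes sulfatide, had 3.80, 2.72, 4.03 and 3.13 FPKM in CR livers, against 0.752, 0.433 and 1.13 FPKM in AL livers (log2 difference 2.08 ± 0.29, adjusted p = 0.0031, limma). Chst13 fell by 0.98 on the log2 scale (adjusted p = 0.0213, limma), a call lost in 4 of the 7 fits without a single liver. Hs3st3b1, Ndst1 and Hs6st1 were not called, at log2 differences of -0.61, -0.16 and -0.04.

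The list of nuclear receptors and liver factors linked to Sult genes held 23 tested genes. In it 4 rose (17.4%, against 11.3% of all genes tested), 4 fell (17.4%, against 10.2%) and 15 were not called, with a median log2 difference of 0.18. Cux2 rose by a log2 difference of 5.55 ± 0.20 (adjusted p = 3.02e-06, limma). It was at 5.15, 6.35, 5.99 and 4.14 FPKM in CR livers, against 0.0122, 0.0175 and 0.0191 FPKM in AL livers. Cux2 thus passed the filter only through its CR livers, so nothing is read from its p-value. Its AL values lie below the added 0.1 FPKM, so its fitted difference and standard error depend on that constant. Stat5a, a transducer of growth hormone signals, fell by 0.73 on the log2 scale (adjusted p = 0.00755, limma), at 1.499 ± 0.07 FPKM in CR livers and 2.56 ± 0.22 FPKM in AL livers. The related and more abundant Stat5b, named after its values had been seen, was not called (log2 difference 0.18 ± 0.12). It was at 13.7 ± 1.40 FPKM in CR livers and 12.1 ± 1.38 FPKM in AL livers.

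Other calls of that list were weak. Nfe2l2 rose and Bcl6, Nr1h3 and Rxra fell, with adjusted p between 0.0305 and 0.0458 (limma), and each lost its call in 5 or 6 of the 7 fits without a single liver, with adjusted p up to 0.159 for Rxra. Apart from Rxra these genes were added after their values had been seen. Bcl6, a repressor known for higher expression in male mouse liver, had 1.14, 1.71, 1.39 and 1.95 FPKM in CR livers, against 2.39, 4.12 and 11.4 FPKM in AL livers. The receptors for xenobiotics and bile acids, Nr1i2 (PXR), Nr1i3 (CAR) and Nr1h4 (FXR), were not called. Hnf4a, the hepatocyte nuclear factor, was not called, at 181 ± 28.7 FPKM in CR livers and 186 ± 44.4 FPKM in AL livers.

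Transporters that carry sulfated steroids and bile acids changed in both directions. Of 14 tested genes 5 rose (35.7%, against 11.3% of all genes tested), 3 fell (21.4%, against 10.2%) and 6 were not called, with a median log2 difference of 0.06. Slco1a1, an uptake transporter for steroid sulfates that is known for higher expression in males, was at 0.640, 0.301, 0.564 and 0.549 FPKM in CR livers, against 86.4, 74.96 and 54.1 FPKM in AL livers (log2 difference -6.88 ± 0.24, adjusted p = 3.02e-06, limma). Slco1a4, a related uptake transporter, was at 64.2, 63.7, 50.2 and 42.8 FPKM in CR livers, against 4.68, 3.90 and 3.72 FPKM in AL livers (log2 difference 3.71 ± 0.17, adjusted p = 1.2e-05, limma). These 2 paralogues thus moved in opposite directions, without overlap between the diets.

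Among the exporters, Abcc4 rose to 4.88 ± 1.19 FPKM in CR livers, against 0.596 ± 0.14 FPKM in AL livers (log2 difference 2.83 ± 0.23, adjusted p = 0.00026, limma). Slc10a1, the sodium-dependent bile acid importer, averaged 419 ± 62.7 FPKM in CR livers and 172 ± 23.6 FPKM in AL livers (log2 difference 1.28 ± 0.16, adjusted p = 0.00192, limma). Named after their values had been seen, Slc22a7 and Slc10a2 fell by 2.66 and 3.55 on the log2 scale (adjusted p = 0.000908 and 0.00106, limma), and Abcc2 and Slc51b rose by 0.999 and 2.68 (adjusted p = 0.0176 and 0.0208, limma). The Abcc2 call was lost without AL1 or AL2 and the Slc51b call without AL1, AL2 or CR2, with adjusted p up to 0.0634 and 0.0791. Slco1b2, at 185 ± 49.6 FPKM in CR livers and 181 ± 23.6 FPKM in AL livers, was not called.

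**Figure D5:**
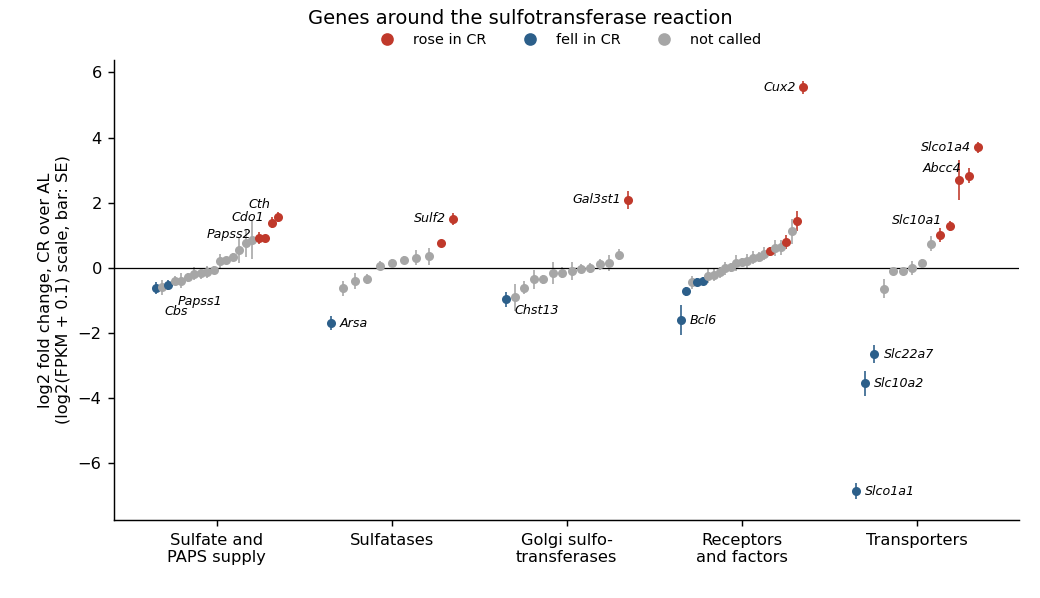
Log2 fold change of CR over AL (points, on the log2(FPKM + 0.1) scale) with its standard error (bars) for the tested genes of 5 lists around the sulfotransferase reaction, ordered within each list by size. Red genes rose and blue genes fell in CR livers (limma, adjusted p under 0.05), grey genes were not called, and the widest spread is among the transporters, between -6.88 for Slco1a1 and 3.71 for Slco1a4.

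The libraries held 16486665 to 19900806 reads in genes in CR livers and 15641740 to 16101631 in AL livers, and a single read of a gene 2 kb long gave 0.0250 to 0.0321 FPKM. Hepatocyte markers summed to 56231 to 60797 FPKM in CR livers and 29464 to 46539 FPKM in AL livers, with 2 of 10 rising and 2 falling. The largest part of each sum was Alb, at 36441 to 42291 FPKM in CR livers and 13855 to 24725 FPKM in AL livers. Mitochondrial genes took 5.62% to 8.09% of reads in CR livers and 3.92% to 4.85% in AL livers. Markers of other cells were summed in the same way. Endothelial markers summed to 22.0 to 47.7 FPKM in CR livers and 52.4 to 58.0 FPKM in AL livers, with 0 of 7 called. Kupffer cell markers summed to 62.9 to 205 FPKM in CR livers and 111 to 186 FPKM in AL livers, with 1 of 7 rising, and were lowest in CR3. Bile duct markers (0 of 4 tested called) and stellate cell markers (2 of 7 falling) overlapped in their sums between the diets. Blood markers summed to 233 to 368 FPKM in CR livers and 153 to 189 FPKM in AL livers, with 2 of 5 tested rising and 1 falling. The summed markers of adipocytes (1.48 to 2.27 FPKM in CR and 4.87 to 8.05 FPKM in AL livers), intestine (13.3 to 18.4 in CR and 37.1 to 39.5 in AL) and pancreas (1.62 to 2.41 in CR and 6.43 to 13.4 in AL) each had 1 gene that fell, Cfd, Fabp2 and Cela1, while Lep, Cdx1, Cdx2, Sis, Prss2, Cpa1, Cel, Pnlip and Ctrb1 were at 0 in all 7 livers. The part of these shifts in the sulfotransferase levels was not tested.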

How the data were processed

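Liver poly(A) RNA of 7 mice was sequenced, 4 CR and 3 AL, and samples were mapped to diet and replicate by their labels. The authors deposited 1 table of FPKM values for 54532 genes. Tools listed by the submitters were CASAVA 2.19, featureCounts 1.5.0-p3 and HISAT2 2.0.5, with the build GRCm38 (mm10). Strand setting, treatment of reads with several matches and FPKM formula: not given in the sources used here. The product of FPKM and gene length, divided by 1 constant per library, gave whole read numbers (within 0.00011 of a read), which were used only for depth, floors and limma-voom.

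The 12699 genes that reached 0.5 FPKM in 3 or more libraries were fitted on log2(FPKM + 0.1) with limma 3.58.1 (trended, robust, two-sided, R 4.3.3), which was tested on simulated data, with p-values adjusted by Benjamini and Hochberg over all genes and called under 0.05. The 10 genes and the lists were chosen with earlier results of these data known. Named were the 10 genes, other genes named Sult with at least 0.5 FPKM in any library, from each list the 3 tested genes with the smallest adjusted p and the 2 most abundant, neighbours that were called, and the 3 most similar genes; others are marked as added, and some genes under this rule are not reported here. Sequences were compared with Biopython 1.88 on GENCODE M21 and RefSeq promoters. No 2 libraries matched within sampling noise. Alternatives were other pseudocounts, filters, scalings and variance models, limma-voom on recovered reads, a replicate block, and each liver left out in turn.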

Additional observations from a re-analysis of the deposited data

Results flagged for a closer look

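Among 61 genes examined in the 4 CR livers, 1 had a library far from the other 3. Abcc2, an exporter of sulfated and glucuronidated compounds, was at 168 FPKM in CR replicate 1, against 111 to 114 FPKM in the other CR livers and 63.4 ± 16.9 FPKM in AL livers. Chance alone puts about 1 in 20 such groups past this limit.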

How the results depend on the processing

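The 10 sulfotransferase genes kept their direction in every alternative that could fit them. Because none of them overlapped between the diets, another pseudocount or the loss of 1 liver could not have reversed it. Nothing is therefore read from this. Without any 1 liver, 7 to 8 of them were called higher and 2 lower, against 699 to 1523 and 629 to 1234 of all 12699 genes tested. A floor of 1 FPKM in every library, which removes genes under that level in any liver, left 4 of the 10 to test. Of these 4, 3 were called higher and 1 lower, against 1179 higher and 1045 lower of all 9039 genes tested at that floor. It left 1 rising of 9 tested sulfatases, 0 rising of 9 Golgi sulfotransferases and 2 rising of 21 receptors and factors. Of 10 tested transporters 1 fell, and of 29 tested neighbours 4 rose and 1 fell. Without a filter on low values 0 falling genes of sulfate and PAPS supply, 2 rising and 1 falling receptors and factors were called. With constant variance these were 0 falling supply genes and 2 falling receptors and factors, and limma-voom called 2 falling Golgi sulfotransferases. Replicate numbers did not pair the samples (correlations of deviations 0.0313, -0.0442 and -0.0575). A fit with the replicate number as a block, over fewer residual degrees of freedom, called 482 genes higher and 508 lower in all, 0 falling supply genes, 1 rising sulfatase, 2 rising and 0 falling receptors and factors, 3 rising transporters, and 5 rising and 1 falling neighbours, with Slco1b2 at a log2 difference of 0.065. Without any 1 liver, 699 to 1523 of all genes rose and 629 to 1234 fell, where omission of AL1 (799 and 686), AL2 (699 and 629) or CR2 (911 and 841) moved the counts most. Across these fits 0 to 1 supply genes fell, 1 to 2 Golgi sulfotransferases rose and 0 to 1 fell, 1 to 6 receptors and factors rose and 1 to 3 fell, 3 to 5 transporters rose, and 5 to 8 neighbours rose and 2 to 5 fell. The uncalled log2 differences crossed 0 for Ndst1 (-0.29 to 0.016), Hs6st1 (-0.11 to 0.073), Hnf4a (-0.21 to 0.14) and Slco1b2 (-0.15 to 0.14). The cause of these shifts was not tested. Low genes depend on the pseudocount, as Sult1e1 does, with a log2 difference of 2.60 at a pseudocount of 1 and 5.45 at 0.01. Counting intervals and floors cover counting error only.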
